A study of Mus musculus with 3 samples.

Results

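The subject is TRα1 occupancy at 7 mouse genes that encode subunits of the receptors for γ-aminobutyric acid (GABA): Gabra2, Gabra4, Gabra5, Gabrb1, Gabrb2, Gabrd and Gabbr1. A binding site was assigned to one of them when its summit lay inside the gene (GENCODE annotation of GRCm38) or within 30 kb of the 5′ end of the gene. By this rule 13 of the 23988 sites of the series, or 0.0542%, belonged to these genes, in 15 pairs of a gene and a site. The pairs outnumber the sites because 2 sites were shared by Gabra4 and Gabrb1.

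ChIP-seq had been performed on striatum from adult male C57BL/6J mice whose GABAergic neurons expressed a GS-tagged version of TRα1, a nuclear receptor for thyroid hormone. The animals were euthyroid and received no treatment, and they were 8 weeks old. Proteins and DNA were fixed by disuccinimidyl glutarate followed by formaldehyde, which also retains proteins that reach DNA through other proteins. There were 2 ChIP libraries and 1 library of input chromatin, all with this genotype, and no library with an untagged receptor was analysed here. The promoter that drove the tagged receptor, and whether animals were pooled, are not given in the sources used here.

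The processed data were a single list of peaks without values for each library. Replicates could therefore not be compared, no value carries an error over animals, and no test was possible. The number of reads per library was not analysed here. Fewer tagged cells and less binding per cell cannot be told apart in such tissue. Among genes characteristic of GABAergic and striatal neurons, 9 of 10 had a site by the same rule (Adora2a had none), against 0 of 5 astrocyte genes, 3 of 5 oligodendrocyte genes and 2 of 5 microglia genes, beside 57.7% of all protein-coding genes. A binding site is not a measure of expression.

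GABA is the main inhibitory transmitter of the brain, and projection neurons of the striatum both release and receive it. GABA-A receptors are pentameric chloride channels, most often of α and β subunits together with a γ or a δ subunit, and the subunit makeup sets where the channel sits and how it responds. GABA-B receptors are instead coupled to G proteins and are built from the products of Gabbr1 and Gabbr2. TRα1 binds DNA with the partner receptor RXR, preferentially at DR4 elements, in which AGGTCA half-sites follow each other with 4 bases between them.

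All 7 genes had at least 1 site. This was also the case for 57.7% of protein-coding genes (12648 of 21938), so the presence of a site did not set a gene far apart. Gabbr1 had 4 sites, Gabrb1 had 3, Gabra4, Gabra5 and Gabrd had 2 each, and Gabra2 and Gabrb2 had 1 each. The strongest site lay at the shared 5′ ends of Gabra4 and Gabrb1, with a fold enrichment of 31.5. A DR4 element was present in 3 of 13 sites, against 17.3% of all sites. These were the 2 neighbouring sites shared by Gabra4 and Gabrb1 and 1 site over a tandem repeat upstream of Gabrd. At Gabrd, no site lay in the gene, and both of its sites were closer to the start of another gene.

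**Figure D1:**
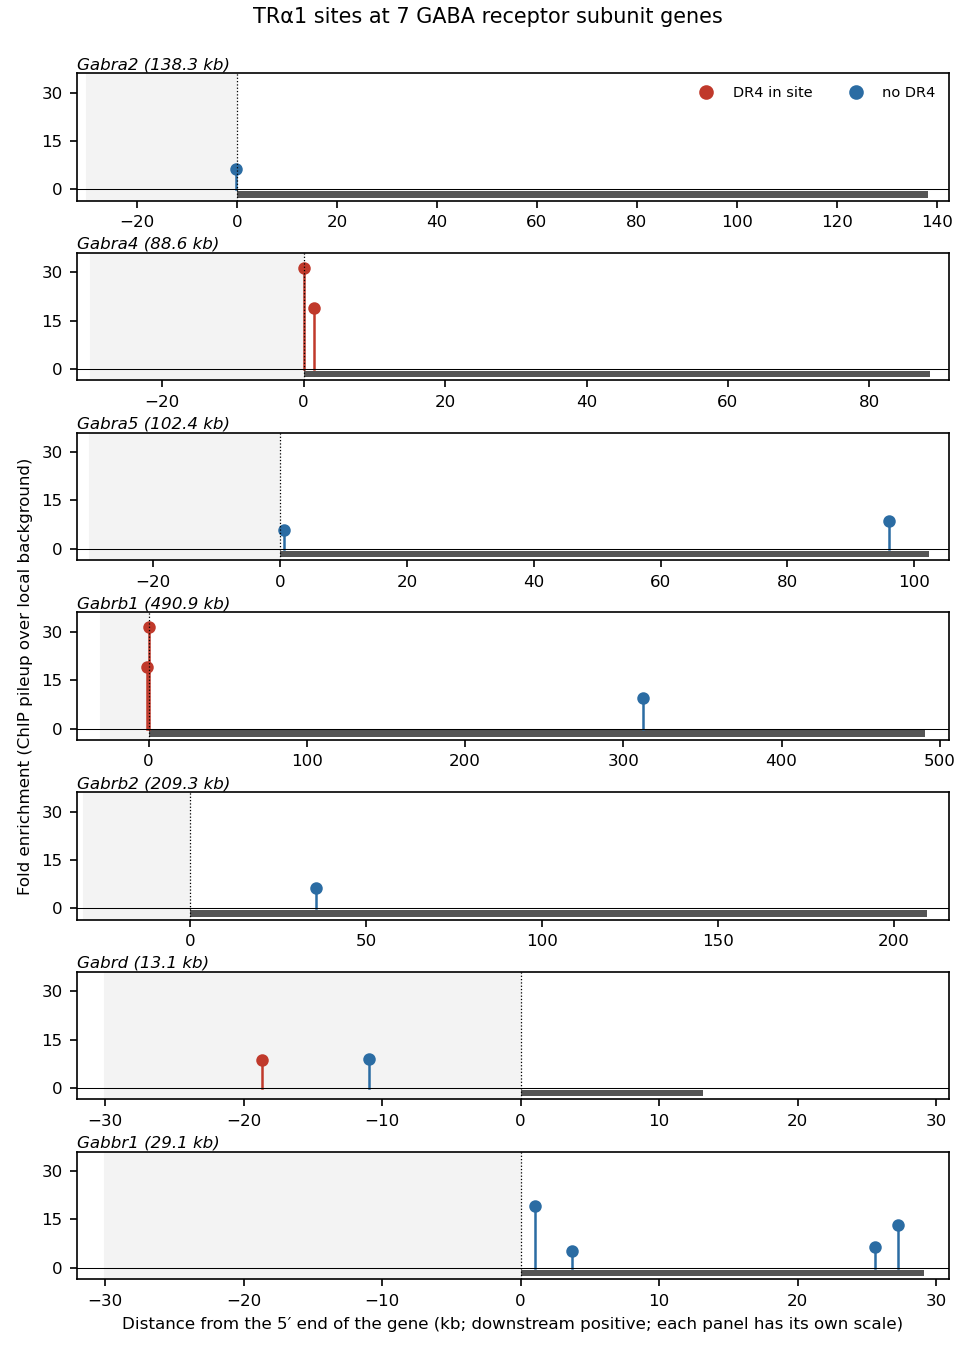
Fold enrichment (vertical axis, ratio of ChIP pileup to local background) of each site against its distance from the 5′ end of the gene in kb (horizontal axis, on a scale of its own in each of the 7 panels), with the gene as a dark bar and the 30 kb upstream shaded. The sites at Gabra4 cluster at its start, those at Gabbr1 lie at both ends of the gene, those at Gabrd lie 10916 and 18649 bp upstream, and DR4 (red) was found at Gabra4, Gabrb1 and Gabrd.

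The sequences at the summits of the sites that the results turn on are given first, on the plus strand of GRCm38. A match to DR4 could differ from the consensus at up to 2 of the 12 half-site bases and could lie on either strand. The first group holds the 3 sites with such a match, and capitals mark the half-sites. At Gabra4 and Gabrb1 only 30 bases are shown (chr5:71656912-71656941 for the site 1414 bp inside Gabra4 and chr5:71658234-71658263 for the site at its start). For Gabrd the 101 bases around the summit of the more distant site are shown (chr4:155416711-155416811).
Gabra4/Gabrb1, 1414 bp inside Gabra4: tgcagtcAGGTCTcaagAGGTAAttagtgt
Gabra4/Gabrb1, start of Gabra4: ctgccacTGGCCTgggcTGACTTctcttct
Gabrd, 18649 bp upstream: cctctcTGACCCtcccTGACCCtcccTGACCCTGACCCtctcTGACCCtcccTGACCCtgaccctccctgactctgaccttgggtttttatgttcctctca

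The second group holds summits without a match, 101 bases each, chosen to show how much their base composition differed. Capitals mark CpG dinucleotides. The windows were chr5:71096061-71096161 at the start of Gabra2, chr7:57509456-57509556 in intron 1 of Gabra5, chr17:37046955-37047055 in intron 2 of Gabbr1, chr11:42455506-42455606 in intron 4 of Gabrb2 and chr5:71970412-71970512 in intron 4 of Gabrb1. The first pair was rich in CpG and the last pair contained none.
Gabra2, 262 bp upstream: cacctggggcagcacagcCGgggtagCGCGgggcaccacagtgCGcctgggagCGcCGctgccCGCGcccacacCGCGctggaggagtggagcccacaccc
Gabra5, intron 1: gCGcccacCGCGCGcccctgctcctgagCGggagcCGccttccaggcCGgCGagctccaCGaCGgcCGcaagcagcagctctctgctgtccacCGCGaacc
Gabbr1, intron 2: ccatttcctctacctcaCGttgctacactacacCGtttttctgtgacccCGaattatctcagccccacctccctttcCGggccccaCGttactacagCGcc
Gabrb2, intron 4: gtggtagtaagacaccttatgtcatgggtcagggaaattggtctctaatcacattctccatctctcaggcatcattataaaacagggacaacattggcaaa
Gabrb1, intron 4: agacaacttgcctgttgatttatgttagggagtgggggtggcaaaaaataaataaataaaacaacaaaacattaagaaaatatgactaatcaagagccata

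Among the α subunits, Gabra4 encodes α4, which forms receptors outside synapses together with δ. Gabra4 (ENSMUSG00000029211.11, chr5:71569749-71658308, minus strand, 88.6 kb) had 2 sites, and both were shared with Gabrb1. The pileup, that is, the number of ChIP fragments covering the summit, was 84 at the site on its start (chr5:71657939-71658807, 869 bp long). The fold enrichment there was 31.5 and the −log10 q value 105, above 96.7% of all sites by fold. This summit lay 53 bp downstream of the 5′ end of Gabra4, in the untranslated part of its first exon.

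The other site (chr5:71656678-71657252, 575 bp) had a pileup of 64, a fold enrichment of 18.9 and a −log10 q value of 63.1. Its summit lay 1414 bp inside Gabra4, in an exon of a non-coding transcript with a retained intron, and 90.1% of all sites were weaker by fold. The 2 summits were 1361 bp apart. They were the highest and the third highest of the 13 sites by fold enrichment.

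Both sites held a DR4 match close to the summit. With positions counted from 1 at the 5′ end of the 16 bases of the element, the match of the weaker site (chr5:71656919-71656934, plus strand) differed from the consensus by A6T and C15A, and its centre lay 32 bp from the summit. The match of the stronger site (chr5:71658241-71658256, minus strand) differed by G2A and T14C, and its centre lay 7 bp from the summit. Each therefore carried 1 mismatch in each half-site.

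Gabrb1 encodes the β1 subunit, which with an α subunit forms the site where GABA binds. Gabrb1 (ENSMUSG00000029212.11, chr5:71658113-72149037, plus strand, 491 kb) lies head to head with Gabra4, and the annotated genes overlap by 196 bp. Counted from the 5′ end of Gabrb1, the summits of the shared sites lay 1219 bp upstream and 142 bp downstream, the latter in an intron. This 5′ end belongs to a transcript outside the basic set of GENCODE. The transcript of Gabrb1 in the basic set starts 41819 bp further along, so that the summits lay 43038 and 41677 bp upstream of it and only 1 site was assigned to Gabrb1 when that start was used. A RefSeq promoter of Gabrb1 (chr5:71657671-71657970) overlapped the stronger of the shared sites. A further RefSeq promoter of Gabrb1 (chr5:71699682-71699981) overlapped no site. To which of Gabra4 and Gabrb1 the shared sites relate cannot be told apart from positions alone.

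The site of Gabrb1 that no other member shared lay in intron 4 (chr5:71969990-71970887, 898 bp), 312349 bp from the 5′ end or 63.6% of the way along the gene. Its pileup was 25, its fold enrichment 9.43 and its −log10 q value 17.9, above 67.4% of all sites by fold. The nearest start of any protein-coding gene was that of Commd8, 197727 bp away. By this distance it was the most isolated of the 13 sites, and its summit lay in AT-rich sequence, with 37.8% G and C bases in the 201 bases around it.

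Gabra2 encodes α2, an α subunit found at synapses. Gabra2 (ENSMUSG00000000560.9, chr5:70957597-71095849, minus strand, 138 kb) belongs to the same cluster on chromosome 5, where 115 kb separate it from Gabrg1 and 474 kb from Gabra4. Its single site (chr5:71095989-71096577, 589 bp) had its summit 262 bp upstream of the 5′ end. The pileup was 18, the fold enrichment 6.35 and the −log10 q value 9.38, and 36.6% of all sites were weaker by fold. The summit lay in CpG-rich sequence with 72.1% G and C bases and 13 CpG in 201 bases. It held 2 GC boxes (GGGCGG), 1 CCAAT and no DR4 match. Gabrg1, which encodes γ1, had no site.

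Gabra5 encodes α5, found largely outside synapses. Gabra5 (ENSMUSG00000055078.7, chr7:57407672-57510059, minus strand, 102 kb) had 1 site near each end. The site in intron 1 (chr7:57509314-57509877, 564 bp) had a pileup of 15, a fold enrichment of 5.95 and a −log10 q value of 7.60, with 23.8% of all sites weaker by fold. Its summit lay 553 bp from the 5′ end of the gene and 135 bp from the nearest transcript start. It had the highest share of G and C bases of the 13 sites, at 76.6%, and 28 CpG in 201 bases.

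The other Gabra5 site lay in intron 8 (chr7:57413798-57414114, 317 bp), 96095 bp from the 5′ end or 93.9% of the way along the gene. Its pileup was 22, its fold enrichment 8.55 and its −log10 q value 14.8. By fold, 60.9% of all sites were weaker. The summits of the Gabra5 sites were 95542 bp apart, and their base composition differed widely, with 38.3% G and C bases and 3 CpG at the intron 8 site.

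Gabrb2 encodes β2, a subunit of many synaptic receptors. Gabrb2 (ENSMUSG00000007653.12, chr11:42419757-42629028, plus strand, 209 kb) had a single site, in intron 4 (chr11:42455360-42455654, 295 bp), 35799 bp from the 5′ end. The pileup was 18, the fold enrichment 6.41 and the −log10 q value 9.48, above 36.9% of all sites by fold. No site lay within 30 kb of the start of Gabrb2. The summit window had 38.3% G and C bases, no CpG and 2 CCAAT. A DR4 was found there only when 3 mismatches were allowed.

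Gabrd encodes δ, the subunit that marks receptors for tonic inhibition outside synapses. Gabrd (ENSMUSG00000029054.8, chr4:155384980-155398112, minus strand, 13.1 kb) had no site in its body, and its 2 sites lay upstream. The nearer (chr4:155408803-155409328, 526 bp) was 10916 bp from the 5′ end, with a pileup of 30, a fold enrichment of 9.08 and a −log10 q value of 19.9. This summit was 162 bp from the start of Cfap74, a gene for a protein of cilia and flagella. The more distant site (chr4:155415794-155416972, 1179 bp) was 18649 bp from Gabrd and inside Cfap74 (chr4:155409190-155466823), with a pileup of 22, a fold enrichment of 8.55 and a −log10 q value of 14.8. When a site counted only if it lay in the body of a member or if the nearest protein-coding start was that of a member, Gabrd had 0 sites and 6 of the 7 genes kept at least 1.

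The distant site of Gabrd lay over a tandem repeat. It held 47 DR4 matches on 1 strand, spread from chr4:155416111 to chr4:155416768, which is 658 bp or 55.8% of the site. Of the 46 steps between neighbouring matches, 19 measured 10 bp and 25 measured 16 bp. These steps alternated in part of the repeat, but 16 bp steps also followed each other, so no single unit length is given. The 47 matches had 2 distinct sequences of 16 bases, and the commoner one was present 32 times here out of 35 times in the genome. All 47 differed from the consensus by A1G and A11G. The summit lay in the repeat, 7 bp from the end of the last of these matches. By the number of matches the site ranked 4 among all sites, where the median of sites with a match was 1 and the highest number was 116. How reads were aligned in this repeat was not examined, and its part in the peak was not tested.

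Gabbr1 encodes the GABA-B subunit that binds the transmitter. Gabbr1 (ENSMUSG00000024462.17, chr17:37045966-37075067, plus strand, 29.1 kb) had the most sites of the 7 genes, and all 4 lay in the gene. The strongest (chr17:37045823-37047235) was 1413 bp long, longer than 99.3% of all sites, and reached across the 5′ end of the gene. Its summit lay in intron 2, 1039 bp from the 5′ end and 437 bp from the start of a shorter coding transcript. The pileup was 61, the fold enrichment 19.1 and the −log10 q value 60.9, above 90.4% of all sites by fold. It held 1 complete half-site in the summit window and 8 CpG, and DR4 only with 3 mismatches, in 2 matches.

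The next site of Gabbr1, in intron 4 (chr17:37049479-37049919, 441 bp), was the weakest of the 13. Its pileup was 16, its fold enrichment 5.33 and its −log10 q value 6.93, and only 6.20% of all sites were weaker by fold. The summit lay 3679 bp from the 5′ end of the gene and 986 bp before the start of another coding transcript, which begins 4665 bp into the gene.

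The remaining pair of Gabbr1 sites lay near the 3′ end of the gene, 21907 bp further on. The site in intron 20 (chr17:37071448-37071706, 259 bp) had a pileup of 18, a fold enrichment of 6.41 and a −log10 q value of 9.48. The last (chr17:37072323-37073389, 1067 bp) had its summit in the 3′ untranslated part of exon 23, with a pileup of 35, a fold enrichment of 13.4 and a −log10 q value of 30.7. It was the fourth strongest of the 13 sites and stood above 81.6% of all sites. Their summits were 16947 and 15279 bp from the start of Olfr90, an odorant receptor gene, which was nearer than the 5′ end of Gabbr1.

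The rule has an edge at 30 kb, and 1 site fell just beyond it at each of the shortest genes. At Gabrd a site (chr4:155367770-155368147, pileup 17, fold enrichment 6.69) had its summit 30150 bp downstream of the 5′ end. At Gabbr1 a site (chr17:37075949-37076279, pileup 15, fold enrichment 5.95) lay at 30177 bp. The members nearest to the edge on the inside were the Gabbr1 site at 27254 bp and, upstream, the Gabrd site at 18649 bp.

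Set against the whole list, the 13 sites ranked from above 6.20% to above 96.7% of all sites by fold enrichment. Their median fold enrichment was 8.55, and single values lay between 5.33 and 31.5, against 7.40 and values from 1.70 to 123 over all sites. The median pileup was 22 against 21, and the median length 575 bp against 422 bp. By fold, 8 of the 13 sites were above the median of the list and 3 were above 18.8, the level that 10% of all sites exceeded. These 3 were the 2 sites shared by Gabra4 and Gabrb1 and the intron 2 site of Gabbr1.

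**Figure D2:**
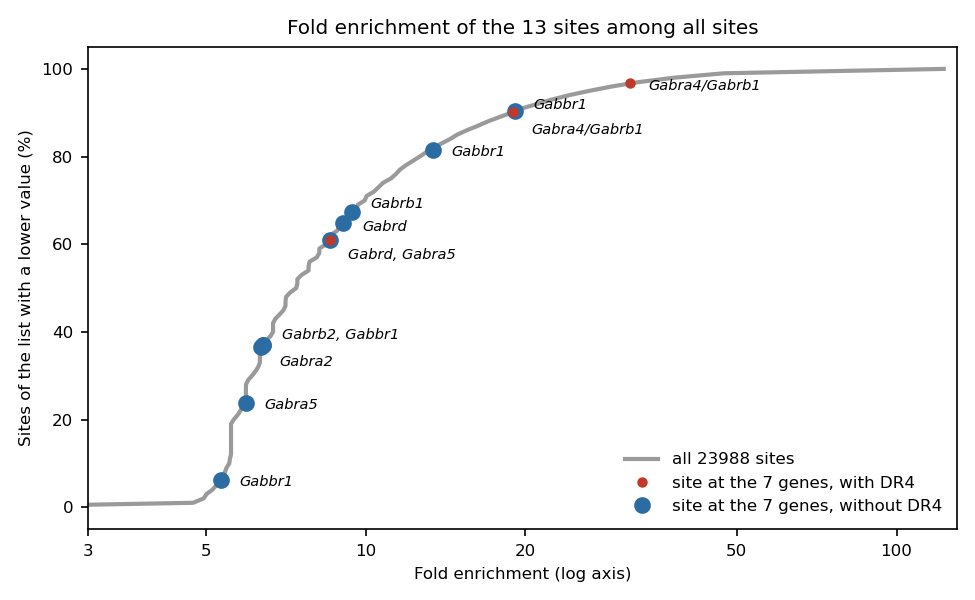
Fold enrichment on a logarithmic axis (horizontal) against the percentage of all 23988 sites with a lower value (vertical), with the 13 sites as points, small red points for those with DR4 and larger blue points for those without. The shared Gabra4/Gabrb1 sites at 18.9 and 31.5 and the Gabbr1 site at 19.1 sit at the upper end, and the Gabbr1 site at 5.33 sits near the lower end.

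The local background, which follows from these values, ranged from 1.69 to 2.43 fragments at the 13 sites, and 4 of them were at the floor of 1.69. At the strongest site, the start of Gabra4, it was 1.70. The order of the sites by fold enrichment was close to their order by pileup.

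By position, 7 of the 13 summits lay in an intron, 2 in an untranslated exon, 1 in a non-coding exon and 3 upstream of the gene, with each shared site counted once under Gabra4. The start of the gene was within 1 kb of the summit at 3 sites, 1 each at Gabra2, Gabra4 and Gabra5. Counting the start of Cfap74, 4 of 13 summits were within 1 kb of the start of a protein-coding gene, against 20.4% of all sites (4894 of 23988). Sites of the whole list within 1 kb of a start had a median of 66.2% G and C bases and 17 CpG per 201 bases. The Gabra5 site was above both values, at 76.6% with 28 CpG. The Gabra2 site was above the first at 72.1% and below the second with 13 CpG, and the Gabra4 site was below both, at 56.2% with 5 CpG.

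The number of sites was then considered with the length of the gene, because a longer gene offers more room. Of genes up to 20 kb long, 50.4% had a site, and 27.2% had at least 2 as Gabrd did. Between 20 and 60 kb the share with a site was 58.5%, and 6.35% had at least 4 as Gabbr1 did. Between 60 and 200 kb, the class of Gabra2, Gabra4 and Gabra5, the share with a site was 73.0%, and 46.7% had at least 2. Above 200 kb, 88.7% had a site and 58.6% had at least 3 as Gabrb1 did, with a median of 3 against the 1 site of Gabrb2.

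Relative to the window searched, Gabbr1 had 6.67 sites per 100 kb, Gabrd 3.33, Gabra4 1.69, Gabra5 1.51, Gabra2 0.594, Gabrb1 0.576 and Gabrb2 0.418. The genes thus fell in nearly the reverse order of their lengths. This order follows in part from the measure, since each gene had a site and longer genes had longer windows. The windows of the 7 genes together covered 1239 kb and held 1.05 sites per 100 kb. The windows of all protein-coding genes held 1.33 and the genome as a whole 0.906.

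**Figure D3:**
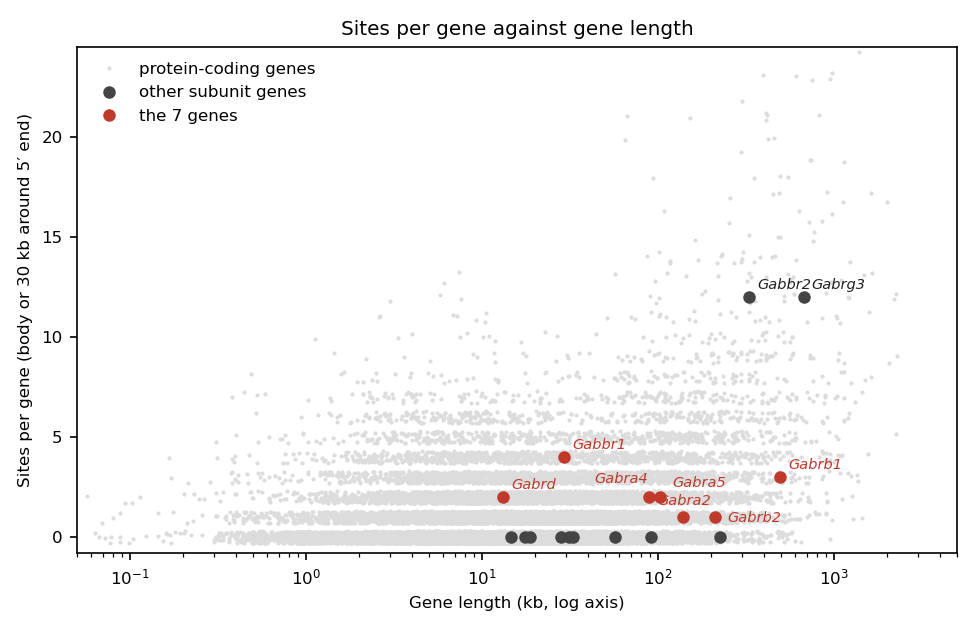
Sites per gene (vertical axis, points of all protein-coding genes spread slightly around whole numbers) against gene length in kb on a logarithmic axis, with the 7 genes in red and 11 other subunit genes in dark grey. Gabbr1 with 4 sites lies high for its length and Gabrb2 with 1 lies low, and 11 genes with more than 24 sites are not drawn.

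DR4 was present anywhere in 3 of the 13 sites, against 17.3% of all sites (4138 of 23988) and 5.90% of windows of equal width placed 5 kb to the right of each site. In all 3 a match reached the 201 bases around the summit, where 13.1% of all sites and 2.30% of the shifted windows had one. No site of the 7 genes had a match with at most 1 mismatch, which 3.86% of all sites had. With at most 3 mismatches the count was 6 of 13, against 52.9% of all sites and 35.2% of the windows. With the tandem repeat at Gabrd left out, the matches were those of the 2 sites shared by Gabra4 and Gabrb1.

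**Figure D4:**
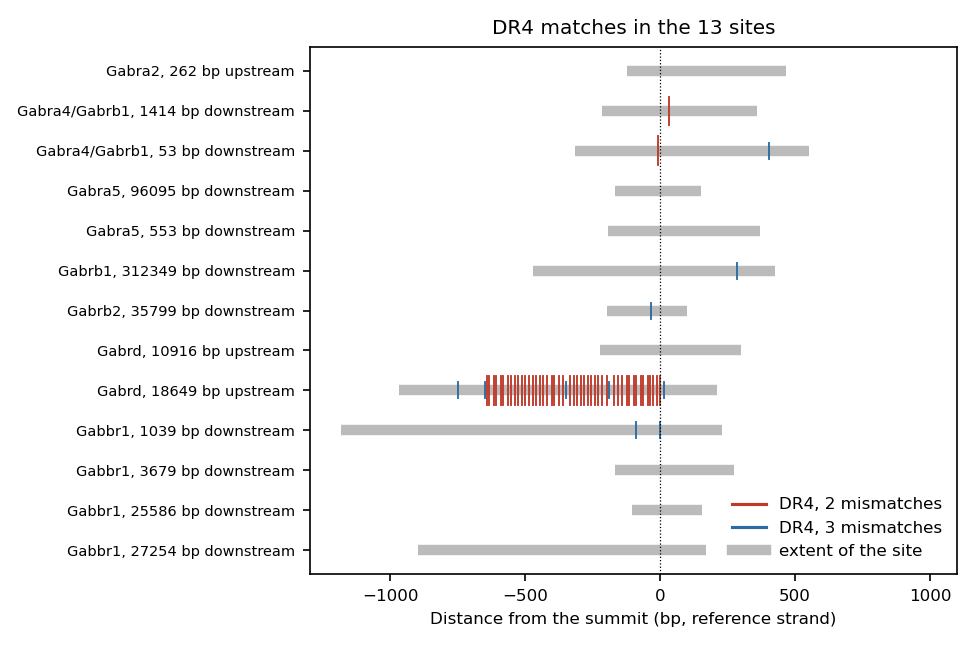
Position of DR4 matches (red with 2 mismatches, blue with 3) relative to the summit in bp along the reference strand, with a grey bar for the extent of each of the 13 sites. At both Gabra4/Gabrb1 sites a single red match lies close to the summit, whereas the Gabrd site 18649 bp upstream holds 47 of them, which end at the summit.

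Other short motifs were counted on both strands in the 201 bases around the summit, as descriptions only. The GC box GGGCGG was found in 3 of 13 sites, against 18.2% of all sites and 2.95% of shifted windows. The half-site AGGTCA was found in 2 of 13, against 17.8 and 12.1%, and CCAAT in 4 of 13, against 19.9 and 25.0%. The homeodomain core TAATTA was found in 1, against 4.62 and 6.10%. Neither TGANTCA, the motif of AP-1, nor TGACGTCA, the motif of CREB, was found, against 11.5 and 0.542% of all sites. RefSeq listed promoters for 6 of the 7 genes, 9 in all. None of these 9 windows, from 250 bases before to 50 after a start, held a DR4 match, against 3.02% of all RefSeq promoters of the same length. The match at the start of Gabra4 (chr5:71658241-71658256) lay just outside the Gabra4 window (chr5:71658259-71658558).

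The 7 genes were set beside 11 other genes for GABA receptor subunits. Of these 11, Gabbr2 (330 kb) and Gabrg3 (671 kb) had 12 sites each. Among protein-coding genes above 200 kb, 12.1% had at least 10 sites. The other 9 of the 11 had no site, namely Gabra3, Gabra6, Gabrg1, Gabre, Gabrp, Gabrq, Gabrr1, Gabrr2 and Gabrr3. A site was thus present at 2 of the 11, against 57.7% of all protein-coding genes. The part of gene length in this was not tested. Gabbr1 and Gabbr2, whose products form the GABA-B receptor, thus had 4 and 12 sites. Their lengths were 29.1 and 330 kb. Relative to the window searched, this was 6.67 sites per 100 kb at Gabbr1 and 3.34 at Gabbr2. Both had a site close to the 5′ end, with a fold enrichment of 19.1 at 1039 bp for Gabbr1 and 8.93 at 125 bp upstream for Gabbr2.

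The 24 sites of Gabbr2 and Gabrg3 had fold enrichments from 4.81 to 31.6 with a median of 7.88. The strongest was in intron 11 of Gabbr2 (chr4:46728154-46728840, pileup 92, fold enrichment 31.6) and held a DR4 match. It was close to the value of 31.5 at the start of Gabra4. A DR4 match was present in 6 of the 24, of which 4 were at Gabbr2 and 2 at Gabrg3. Over all sites the share was 17.3%, and over the shifted windows 5.90%. Next to Gabra5 on chromosome 7, Gabrg3 had its strongest site 2607 bp from its 5′ end (chr7:57384058-57384916, pileup 101, fold enrichment 26.0). The intron 8 site of Gabra5 was also within the window of Gabrg3, and neither site of Gabra5 was above 8.55.

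**Figure D5:**
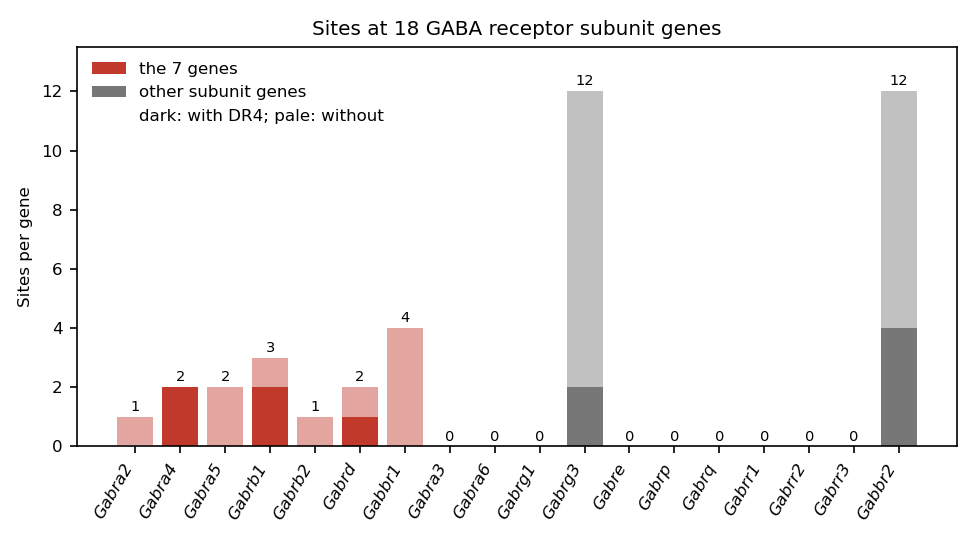
Number of sites (vertical axis) at each of 18 GABA receptor subunit genes, with the 7 genes in red and the others in grey, and the dark part of a bar for sites with DR4. The 7 genes had 1 to 4 sites each, against 12 each at Gabrg3 and Gabbr2 and 0 at 9 genes, and sites shared by neighbouring genes are drawn for each of them. Counts are not scaled to gene length, which was 671 kb for Gabrg3 and 330 kb for Gabbr2.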

How the data were processed

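The authors had aligned reads to GRCm38 with Bowtie2 and called peaks with MACS2 (versions 2.3.2.2 and 2.1.1.20160309.0 in the submitters' processing notes), and had removed peaks with a score below 60. Pooling of the ChIP libraries and treatment of duplicate reads are not given in the sources used here. The deposited pileup is fragment coverage at the summit, and the deposited fold enrichment is the ratio of the pileup to the local background, after adding 1 to both. The −log10 q-value and the score, 10 times that value, are also as deposited by the authors. Samples were grouped from their titles, and all values served only for description.

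Genes were those of GENCODE vM21 (55413, of which 21938 were protein-coding), and positions were checked against 21 chromosomes of the RefSeq sequence of GRCm38, from which all sequences were read. Each gene was counted over its body and 30 kb on either side of its 5′ end. Exons and introns were numbered along the principal coding transcript. Local background was obtained by dividing the pileup plus 1 by the fold enrichment and subtracting 1. DR4 was searched on both strands with at most 2 mismatches in 12 half-site bases, and shifted windows lay 5 kb to the right. The 7 genes, the gene lists and the motifs were chosen with earlier results of these data known. Named genes were 18 subunit genes and any protein-coding gene whose body held a site of the 7 or whose start was nearer to it, and some results under this rule are not reported here. No test was made, since the list holds no values for single libraries. Alternatives were other scores, site positions, distances, annotations and mismatch limits. The stricter assignment to genes, the basic transcripts of Gabrb1 and the exclusion of the tandem repeat were added after seeing the data. Python 3.11.15, numpy 2.4.6, pandas 2.3.3 and matplotlib 3.10.9 were used. The searches were tested on simulated data.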

Additional observations from a re-analysis of the deposited data

How the results depend on the processing

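The alternatives gave 61 values for the main counts and the median, of which 43 stayed within 1.5 times the reported count or kept the median unchanged. A score of at least 100 left 8 of the 13 sites, 1 within 1 kb of a start and 3 in introns, with a median fold enrichment of 11.4. A score of at least 200 left 4 sites at 3 genes (Gabra4, Gabrb1 and Gabbr1), 1 within 1 kb of a start and 1 in an intron, with a median of 19.0, and protein-coding genes with a site then numbered 6712, or 30.6%. With gene bodies only, 7108 protein-coding genes (32.4%) had a site and the median fold enrichment of the sites of the 7 genes was 8.99. With only the 30 kb around the 5′ end the median was 8.82. Over all 55413 annotated genes, 25091 had a site, or 45.3%. DR4 was found in 0 sites with at most 1 mismatch and in 6 with at most 3. With every transcript start, 6 sites were within 1 kb of one.

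For single genes, 16 of 64 values moved. Gabrd had 0 sites with a window of 10 kb, with the gene body only or with a score of at least 200. The windows at 10 kb left 11 sites at 6 genes, while 44.7% of protein-coding genes had a site. With 50 kb, 4 of the 11 other subunit genes had a site, against 66.8% of protein-coding genes. The higher score limits pick sites by strength, so their higher medians follow from their construction. No paired analysis was possible because the list holds no values for single libraries. The depth of the libraries, which limits weak sites such as that in intron 4 of Gabbr1, is unknown here.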

Other observations

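Genes that act with these receptors were counted by the same rule, as a description, beside the 57.7% of all protein-coding genes that had a site. All 7 genes for the synthesis and transport of GABA had one, with a median of 3 sites and a median length of 48.9 kb. The same held for all 6 genes for auxiliary subunits and effectors of GABA-B receptors, with a median length of 197 kb. Of the genes for anchoring and trafficking of GABA-A receptors, 12 of 13 had a site, with a median of 3 sites and a median length of 19.1 kb. The exception was Nlgn2, which encodes an adhesion protein of inhibitory synapses. The glycine receptor genes, which encode the other inhibitory chloride channels of the family, had a site in 1 of 5 cases, at Glrb, with a median length of 94.0 kb. All 18 ionotropic glutamate receptor genes had one, with a median length of 298 kb. The 7 GABA receptor genes had a median length of 102 kb, the 11 other subunit genes 32.9 kb and all protein-coding genes 17.4 kb, and the part of length in these counts was not tested.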
